A study of Mus musculus with 2 samples.

Results

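The genes described are 4: *Mt1* and *Mt2*, which encode metallothioneins, and *Car1* and *Car2*, which encode carbonic anhydrases. They were taken by name from the gene rows of both expression matrices, where all 4 were listed, out of 7181 genes in the WT matrix and 6735 in the Cko matrix. The 4 were selected on their levels in these same libraries, known from an earlier look at the data, so their levels are given as a description. The series profiled bone marrow cells (BMCs) from the hindlimbs and forelimbs of 1 WT and 1 S1P Cko mouse by droplet single-cell RNA sequencing (10x Genomics). Both animals were C57BL6/J and at postnatal day 21. In the Cko, S1P (site-1 protease, gene *Mbtps1*) was deleted by Cre driven from the Osx (osterix) promoter, known from the bone lineage. The study proposes that this promoter is active in blood-forming cells too, and reports loss of the floxed *Mbtps1* exon in neutrophils sorted from Cko mice. Which of the cells profiled here carry the deletion is not known from the design. The study gives its WT as mice floxed for S1P, and mice with the Cre alone were not used in it. Red blood cells were lysed before loading. With 1 animal and 1 library per genotype there is no replicate: no test between genotypes could be made, and every interval below is a 95% interval of counting error only.

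Metallothioneins are small cysteine-rich proteins that bind zinc and copper, buffer free metal and are induced through the metal-sensing transcription factor MTF-1. Carbonic anhydrases interconvert carbon dioxide and bicarbonate, and the cytosolic forms CA1 and CA2, the products of *Car1* and *Car2*, are abundant in red cells, where they serve carbon dioxide transport. *Car1* is also known as a gene of committed erythroid progenitors, and CA2 is known outside the red lineage for acid secretion by osteoclasts.

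The 2 genes of each family are neighbours. In the GENCODE annotation of GRCm38, *Mt2* lies at chr8:94172664-94173568 and *Mt1* at chr8:94179082-94180327, both on the plus strand and 5513 bases apart. *Car1* lies on the minus strand at chr3:14766216-14808368 and *Car2* on the plus strand at chr3:14886273-14900770, 77904 bases apart, with *Car3* between them. Aligned end to end, the *Mt1* and *Mt2* transcripts were identical at 71.4% of the shorter transcript, with a longest shared run of 20 bases, and those of *Car1* and *Car2* at 64.3%, with a longest shared run of 15 bases. No long identical stretch joins either pair, although how reads with more than one match were counted is not given in the sources used here.

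The promoters of the metallothionein pair are shown because both genes moved together along the erythroid stages but parted in the granulocyte-monocyte progenitors. Each is the 250 bases before the RefSeq start site on GRCm38.p6, at chr8:94178839-94179088 for *Mt1* and chr8:94172368-94172617 for *Mt2*, 5′ to 3′ on the plus strand. Capitals mark the core of the metal response element, the DNA site of MTF-1, written TGCACNC or TGCGCNC and searched on both strands.
Mt1: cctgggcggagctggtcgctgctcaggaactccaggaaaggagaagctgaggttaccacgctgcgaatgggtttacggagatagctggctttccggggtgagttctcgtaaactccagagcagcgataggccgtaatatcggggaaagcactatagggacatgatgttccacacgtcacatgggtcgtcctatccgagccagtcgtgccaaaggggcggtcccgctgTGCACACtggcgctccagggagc
Mt2: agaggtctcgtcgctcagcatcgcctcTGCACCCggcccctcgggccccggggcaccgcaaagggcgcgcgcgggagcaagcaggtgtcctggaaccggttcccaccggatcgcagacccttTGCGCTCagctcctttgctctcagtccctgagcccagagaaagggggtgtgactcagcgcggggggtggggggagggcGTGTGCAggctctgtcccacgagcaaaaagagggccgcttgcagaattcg
The *Mt2* window held 3 such cores, at bases -223 to -217, -128 to -122 and, on the minus strand, -50 to -44 from the start. The *Mt1* window held 1, at -23 to -17. At least 1 core was present in 21.3% of 27025 promoters of the same length and at least 3 in 1.28%. The GATA motifs AGATAA and TGATAA, present in 10.3% and 8.16% of promoters, were found in neither window. These are matches of letters only, and bases downstream of the RefSeq start sites, which differ from the GENCODE ones, were not searched. The *Mt1* window ends at 94179088, past its GENCODE start at 94179082. The *Mt2* window ends at 94172617, short of its GENCODE start at 94172664. The windows are thus placed differently, so the counts of cores do not compare the 2 promoters. Whether the cores bear on the levels was not tested.

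The matrices held unique molecular identifiers (UMIs) per gene and cell, 56382459 UMIs in 6287 WT barcodes and 34447224 in 3670 Cko barcodes. The median barcode held 6959 UMIs in the WT and 7432 in the Cko. After barcodes with fewer than 200 genes were left out, 6271 WT and 3662 Cko cells remained, and 28 barcodes occurred in both libraries. A level is given as CPM, the UMIs of the gene summed over the cells of a class per 1000000 UMIs of those cells; since the kit tags the 3′ end of each molecule once, CPM does not grow with transcript length. Cells were clustered jointly without any *Mt* or *Car* gene, so that the classes were not formed by the genes described, and named from marker genes. Erythroid-like cells were divided by the share of their UMIs that came from 4 hemoglobin genes into early (under 2%), onset (2 to 10%), intermediate (10 to 40%) and late (40% or more) stages. Erythroid-like cells made up 54.0% of the WT library and 14% of the Cko library, so every erythroid value rests on far fewer cells in the Cko. *Mbtps1* itself stood at 31.9 CPM in WT and 31.1 in Cko cells, which checks nothing about the deletion, since the 3′ tag does not lie in the deleted exon.

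*Mt1* was highest in early erythroid cells of both libraries. There, 664 WT cells held 11573 *Mt1* UMIs, a level of 987 CPM (969 to 1005), and 82 Cko cells held 3467, a level of 1679 CPM (1624 to 1736). The median WT cell carried 14 *Mt1* UMIs and the median Cko cell 36. The level was lower at each later stage of the WT, with 198 CPM at hemoglobin onset, 88.4 in the intermediate stage and 10.1 in the late stage. The same stages of the Cko held 268, 64.9 and 141 CPM, so that the late stage stood above the intermediate one.

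*Mt2* followed *Mt1* through these stages at a lower level. Early erythroid cells held *Mt2* at 656 CPM (642 to 671) in the WT library and 1394 CPM (1343 to 1446) in the Cko library. In the onset, intermediate and late stages the level was 127, 64.2 and 7.71 CPM in the WT and 142, 54.1 and 90.9 CPM in the Cko. The number of *Mt1* UMIs per *Mt2* UMI therefore stayed between 1.20 and 1.89 in all 4 erythroid stages of both libraries. Within the early cells, thinned to 3000 UMIs each, the pair also varied together from cell to cell, with a Spearman correlation of 0.42 over 664 WT cells and 0.48 over 82 Cko cells, a description over cells that share a library. Of the early cells at this depth, 83.7% of the WT (97.7% unthinned) held an *Mt1* UMI and 72.4% (93.2% unthinned) an *Mt2* UMI. The cluster that held 94.3% of early WT cells and 89.0% of early Cko cells had *Mt2*, *Fam132a*, *Mt1* and *Car1* as its leading genes, although neither metallothionein nor *Car1* was used to form it.

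**Figure D1:**
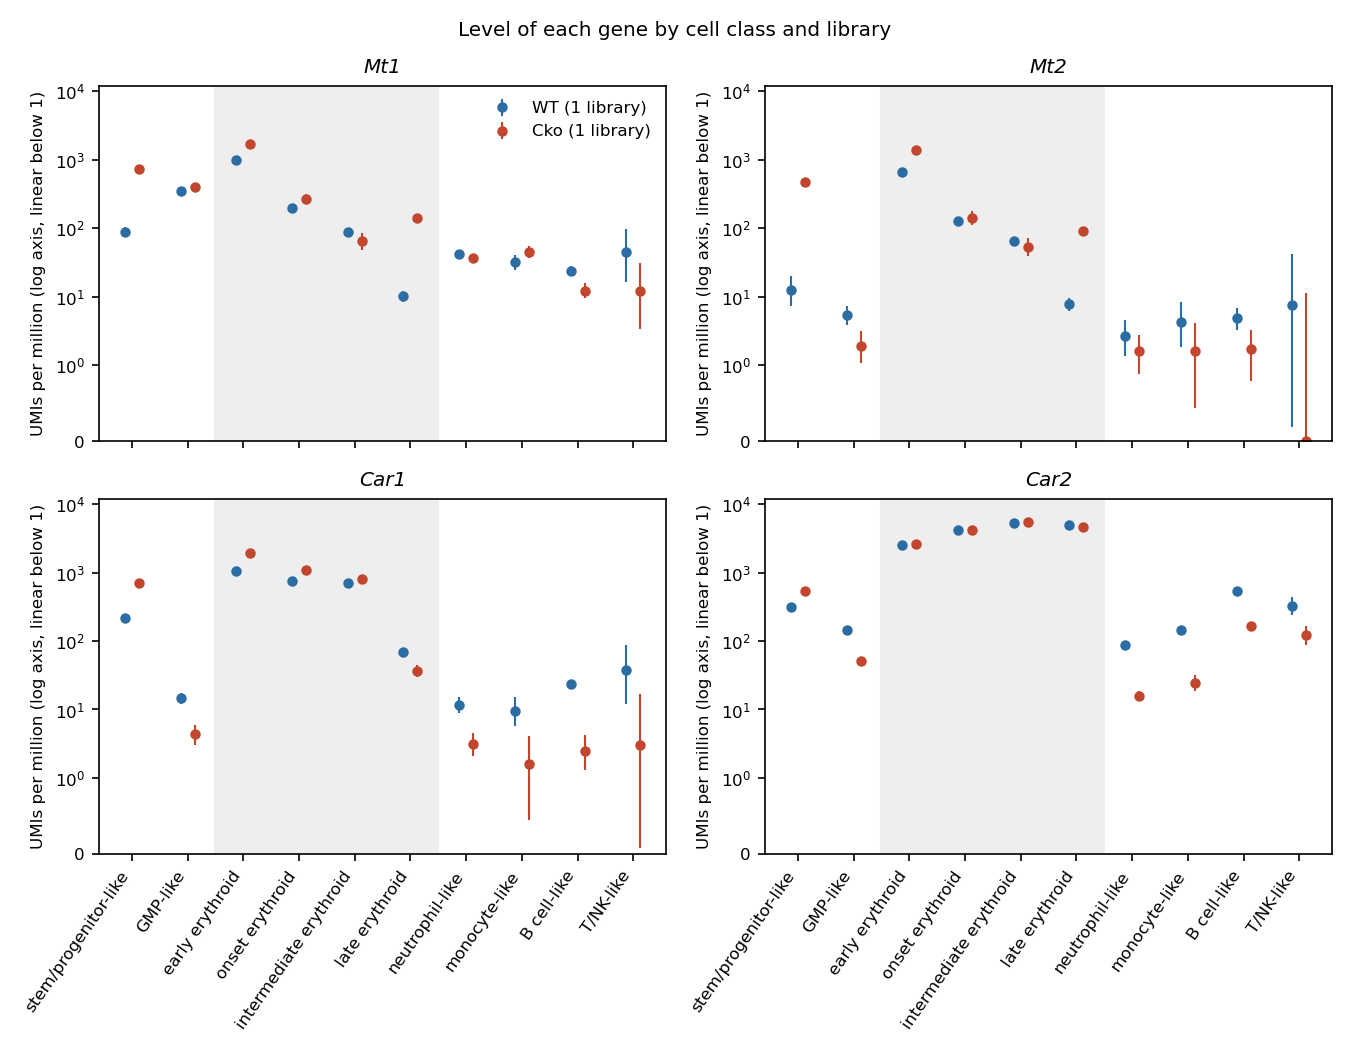
Level of *Mt1*, *Mt2*, *Car1* and *Car2* in CPM (log axis, linear below 1) in 10 cell classes, with 1 point per library (WT blue, Cko red) and 95% Poisson intervals; the grey band marks the erythroid stages and GMP stands for granulocyte-monocyte progenitor. *Mt1*, *Mt2* and *Car1* are highest in early erythroid cells, *Car2* lies at 4123 to 5398 from hemoglobin onset on, and of the metallothioneins only *Mt1* stands out in GMP-like cells.

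In granulocyte-monocyte progenitor-like cells *Mt1* was present with little *Mt2*. These cells, which carry the primary granule genes *Elane* and *Mpo*, held *Mt1* at 356 CPM (342 to 370) in 591 WT cells and 406 CPM (392 to 420) in 485 Cko cells. *Mt2* stood at 5.39 CPM in WT and 1.90 in Cko cells, from 40 and 15 UMIs. The ratio of *Mt1* to *Mt2* UMIs was 66.0 (48.3 to 92.5) in WT and 213 (129 to 381) in Cko cells, against no more than 1.89 in any erythroid stage, and these intervals do not meet. In the *Elane* cluster of the WT the few *Mt2* UMIs were bunched, with 31 UMIs in 7 of 329 cells. An *Mt1* UMI was found in 50.6% of the WT cells thinned to 3000 UMIs (77.8% unthinned) and an *Mt2* UMI in 0.846% (2.71% unthinned).

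The *Mt1* signal of the myeloid branch was graded. In the cluster led by *Elane* it was 511 CPM in WT and 514 in Cko cells, and in the cluster led by *Ctsg*, *Mpo* and *Cd34* it was 185 and 354 CPM. Among neutrophil-like cells, the cluster led by *Chil3*, *Ngp* and *Camp*, genes of immature neutrophils, held 52.9 and 52.3 CPM, and the cluster led by *Mmp8* and *Retnlg*, genes of mature neutrophils, held 5.64 and 5.40 CPM. *Mt2* was at most 2.86 CPM in each of these 2 neutrophil clusters. *Mt1* thus stood in the same order in both libraries, highest in the *Elane* cells and lowest in the mature neutrophil-like cells.

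**Figure D2:**
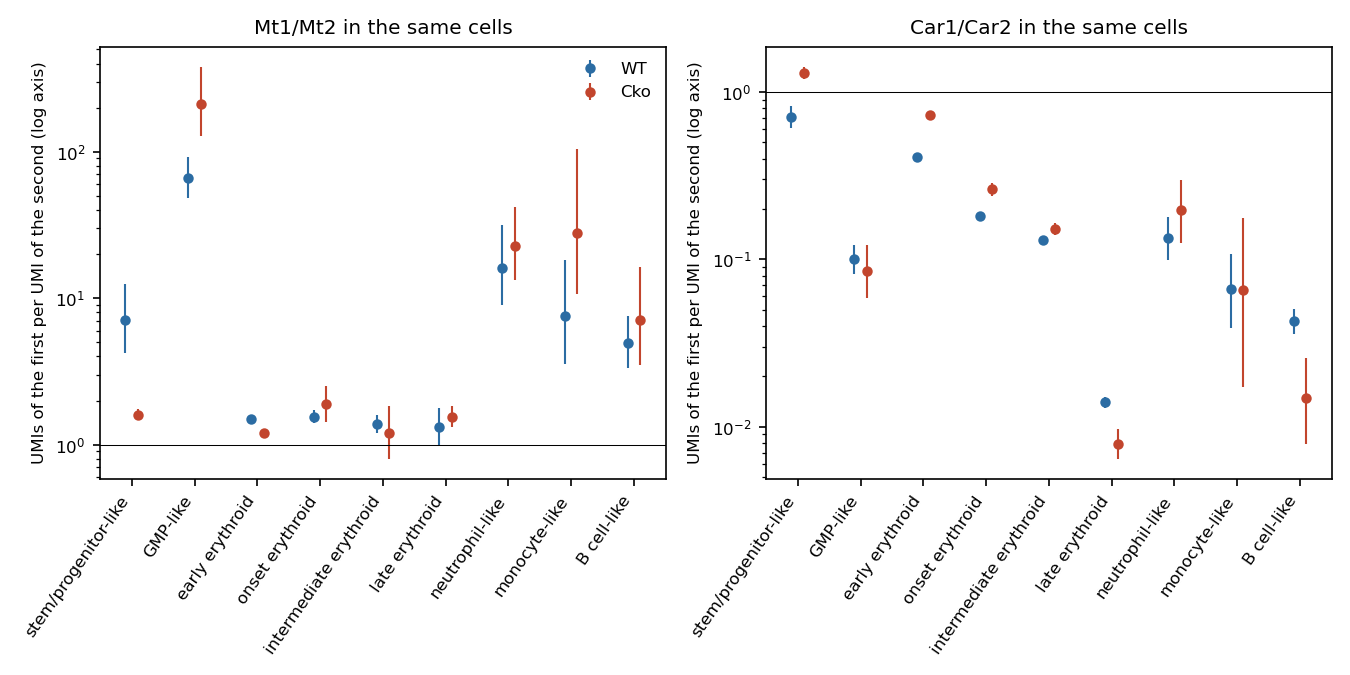
Number of *Mt1* UMIs per *Mt2* UMI (left) and of *Car1* UMIs per *Car2* UMI (right) in the same cells, by class and library (WT blue, Cko red), on log axes with 95% intervals. The metallothionein ratio is near 1 to 2 in erythroid stages and 66.0 and 213 in GMP-like cells, and the carbonic anhydrase ratio falls at each step from early to late erythroid cells.

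*Car1* was highest in early erythroid cells but, unlike the metallothioneins, lasted until the intermediate stage. Its level in the early stage was 1040.1 CPM (1022 to 1059) in WT and 1931 (1871 to 1992) in Cko cells. In the WT it was 749 CPM at onset, 701 in the intermediate stage and 70.3 in the late stage. In the Cko the same stages held 1093, 819 and 37.0 CPM. The early cells differed among themselves: the quartiles of *Car1* UMIs per WT cell were 3 and 28, and the highest cell held 100.

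*Car2* was abundant in early cells too but stood higher in later stages, unlike the other 3 genes. It rose from 2533 CPM in early WT cells (2504 to 2562) to 4123 at onset and 5349.9 in the intermediate stage, and was 5023 in the late stage. In the Cko the levels were 2634, 4164, 5398 and 4679 CPM. Since hemoglobin UMIs fill the late cells, *Car2* was also set against the other UMIs, and on that scale late cells held 16052 CPM in WT and 14476 in Cko cells. A *Car2* UMI was found in over 96% of erythroid cells of every stage in both libraries, after thinning. As genes of progenitors, *Mt1*, *Mt2* and *Car1* were thus highest in early cells, whereas *Car2* was present there at a higher level than the other 3 but was not at its highest.

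The balance of the carbonic anhydrases moved from *Car1* to *Car2* as hemoglobin rose. Early cells carried 0.411 *Car1* UMIs per *Car2* UMI in WT and 0.733 in Cko cells. Late cells carried 0.0140 and 0.00791. The shift from early to late was 4.87 (4.76 to 4.99) on the log2 scale for the WT and 6.53 (6.24 to 6.85) for the Cko, a 29.3-fold and a 92.7-fold change of the ratio. It counts both genes in the same cells and does not depend on hemoglobin in the denominator.

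Finer steps of hemoglobin showed how each gene ran along the erythroid series. In WT cells with under 0.5% hemoglobin *Mt1* stood at 1215 CPM, and it was already 603 CPM between 0.5 and 1% and 231 CPM between 2 and 5%. *Car1* in the WT stayed between 625 and 826 CPM from 0.5 to 40% hemoglobin, then dropped to 249.5 CPM between 40 and 60% and 19.1 CPM between 60 and 80%. *Car2* in the WT climbed to 5918 CPM between 40 and 60% and was 3069.7 CPM above 80%. With hemoglobin UMIs left out of the total the direction turned for the highest bins of *Car2*, which stood at 12068 CPM between 40 and 60%, 17674 between 60 and 80% and 21273 above 80%. On that scale *Mt1* in the WT did not keep falling either, with 28.1, 32.7 and 45.8 CPM in the same 3 bins, and *Car1* was at 509, 62.0 and 104 CPM. The stage borders cut through a continuum: 45 WT and 2 Cko cells lay within 10% of the 2% border, 63 and 1 cells as near to the 10% border, and 135 and 17 cells to the 40% border.

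**Figure D3:**
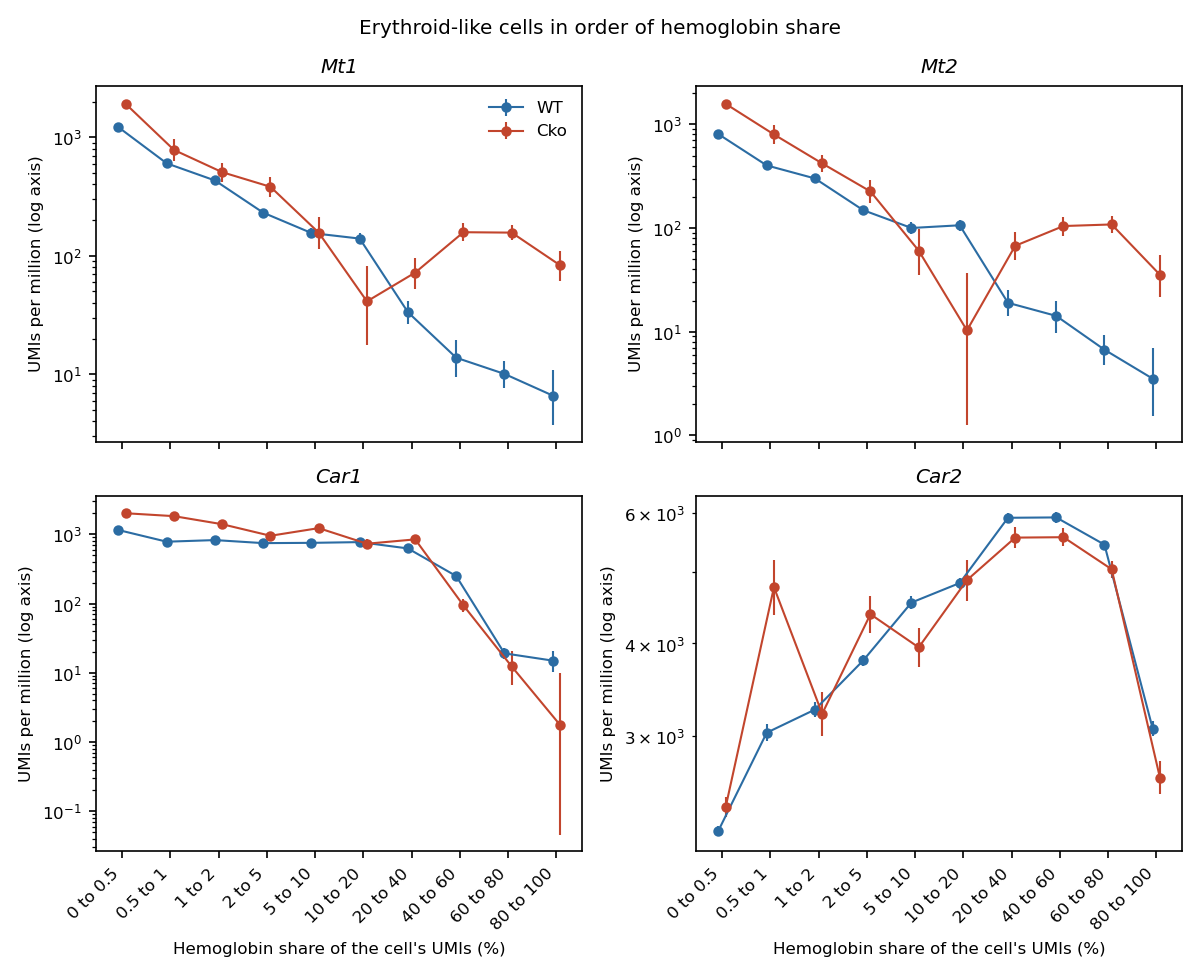
Level of the 4 genes in erythroid-like cells binned by the hemoglobin share of their UMIs (x axis, percent), in CPM on log axes, with 95% Poisson intervals (WT blue, Cko red). With hemoglobin in the total, WT *Mt1* is lower in each bin than in the one before, from 1215 to 6.61 (without it, the last 3 bins are level or higher, at 28.1 to 45.8), while in the Cko *Mt1* and *Mt2* stand higher between 40 and 80% hemoglobin than between 10 and 20%.

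In the early erythroid stage *Mt1*, *Mt2* and *Car1* were higher in the Cko library and *Car2* was nearly level. The log2 ratio of Cko to WT was 0.77 for *Mt1* (0.71 to 0.82), 1.09 for *Mt2* (1.02 to 1.15), 0.89 for *Car1* (0.84 to 0.94) and 0.06 for *Car2* (0.01 to 0.10). Only *Mt2* passed 2-fold, and over all 4900 genes with at least 100 UMIs in this stage 1.65% were higher and 1.61% lower in the Cko by 2-fold or more. Of all genes tested, 97.0% had a lower ratio than *Mt1*, 98.8% than *Mt2*, 98.0% than *Car1* and 67.3% than *Car2*.

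The early cells of the libraries were not alike in other respects. Median hemoglobin was 0.338% of UMIs in WT and 0.0764% in Cko cells, and the median cell held 17781 and 24672 UMIs. *Kit*, the stem cell factor receptor of immature progenitors, was at 23.5 CPM in WT and 41.2 in Cko cells. Other genes set beside it went both ways. The log2 ratio of Cko to WT was 2.66 for *Ctla2a* (26 and 29 UMIs in WT and Cko cells) and 1.13 for *Gata2* (52 and 20). It was -1.96 for *Ifitm1* (155 and 7), and *Cd34* had 9 and 0 UMIs. The primary granule gene *Elane* was at 122 CPM in WT and 17.0 in Cko cells. Called doublets made up 4.07% of WT and 1.22% of Cko cells. Whether the *Elane* UMIs came from other cells was not tested. Within cells under 0.5% hemoglobin the ratios were 0.65 for *Mt1*, 0.97 for *Mt2*, 0.81 for *Car1* and 0.11 for *Car2*, from 426 WT and 67 Cko cells. Between 0.5 and 1% they were 0.38, 0.99, 1.23 and 0.65, from 5 Cko cells. Between 1 and 2% they were 0.23 (-0.05 to 0.50), 0.48, 0.76 and -0.02, from 10 Cko cells, so that the *Mt1* ratio was smaller in both of these bins. The part of maturity and depth in the rest of the difference was not tested.

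The direction for the metallothioneins depended on how the classes were formed. When each library was clustered alone, 73 of the 82 early Cko cells joined the stem and progenitor-like class, 10 Cko cells were left in the early class, and the log2 ratio became -1.32 for *Mt1* and -0.41 for *Mt2*. With the stem and progenitor-like cells that held a UMI of *Klf1*, an erythroid transcription factor, added to those separate classes, it was 0.65 and 0.87, from 692 WT and 151 Cko cells.

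The stem and progenitor-like class, 157 WT and 169 Cko cells, differed more between the libraries but was a mixture. *Mt1* stood at 88.7 CPM in WT and 746 in Cko cells, a log2 ratio of 3.07 (2.80 to 3.35). *Mt2* stood at 12.6 and 468 CPM, a log2 ratio of 5.22 (4.53 to 6.01), with only 17 UMIs in the WT. *Car1* stood at 220.2 and 705 CPM, a log2 ratio of 1.68, and *Car2* at 309.6 and 541 CPM, a log2 ratio of 0.80. So 3 of the 4 genes passed 2-fold, where 1.57% of 3639 genes were higher and 7.36% lower in the Cko by that much.

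These UMIs lay in few cells. At a finer resolution the class parted into cells led by the megakaryocyte genes *Pf4* and *Gp1bb* (107 WT and 117 Cko) and cells led by *H2-Aa* and *Siglech*, genes of dendritic cells (50 and 52), and the second kind held 2 *Mt1* UMIs and no *Mt2* UMI in the Cko. In the Cko, 56 cells with a *Klf1* UMI held *Mt1* at 1465 CPM, *Mt2* at 947 and *Car1* at 1413, and 113 cells without one held 46.0, 1.04 and 15.7 CPM. In the WT, 28 cells with a *Klf1* UMI held 229 CPM of *Mt1*, 44.4 of *Mt2* and 817.5 of *Car1*, and the 129 others held 53.6, 4.62 and 71.1 CPM. All 27 Cko cells with at least 5 *Mt2* UMIs also held *Klf1*, none held *Pf4*, and the WT had 1 such cell. Among cells without *Klf1* the sign turned: the log2 ratio was -0.22 for *Mt1*, -2.14 for *Mt2* and -2.18 for *Car1*. This division by *Klf1* was chosen after the values were seen.

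**Figure D4:**
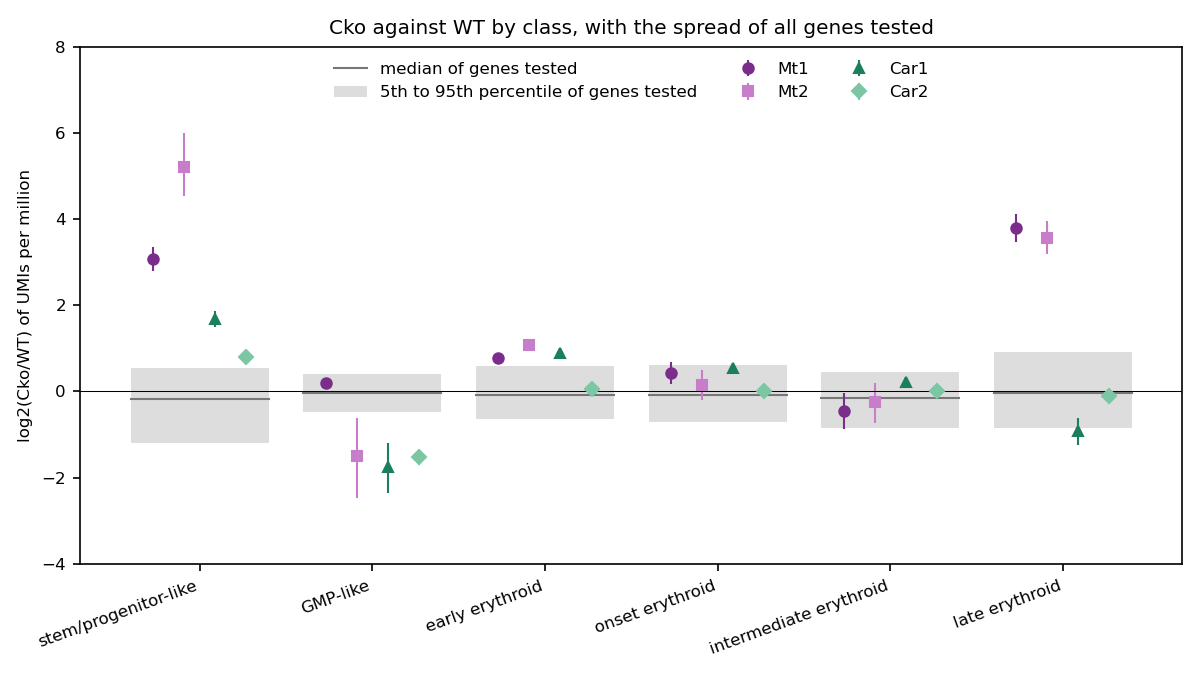
log2 ratio of Cko to WT levels for the 4 genes (coloured points with 95% counting intervals) in 6 classes; grey bars span the 5th to the 95th percentile of all genes tested in the class and grey lines their median. The metallothioneins leave the bar widely in the stem and progenitor-like and the late erythroid classes, and *Car2* stays inside it in all 4 erythroid stages.

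At hemoglobin onset and in the intermediate stage none of the 4 genes passed 2-fold, where 1.18% and 0.952% of genes were higher and 1.86% and 2.61% lower in the Cko. *Car1* was 0.54 higher on the log2 scale at onset (0.42 to 0.67) and 0.22 higher in the intermediate stage (0.10 to 0.34). *Mt1* had a log2 ratio of 0.44 at onset and -0.45 in the intermediate stage, where the interval reached from -0.88 to -0.04. The Cko values there rest on 32 and 74 cells. Within the intermediate stage *Mt1* was lower in the Cko between 10 and 20% hemoglobin and higher between 20 and 40%.

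In late erythroid cells both metallothioneins were higher in the Cko. *Mt1* was at 10.1 CPM in 1758 WT cells (104 UMIs) and 141 CPM in 324 Cko cells (358 UMIs), a 13.9-fold difference (11.1 to 17.5). *Mt2* was at 7.71 CPM (79 UMIs) and 90.9 CPM (231 UMIs), an 11.8-fold difference (9.10 to 15.4). Among the 3014 genes tested they ranked 2 and 3 by this ratio, where 4.18% of genes were higher in the Cko by 2-fold or more and 2.75% lower. The carbonic anhydrases went the other way or stayed level, with a log2 ratio of -0.93 for *Car1* (-1.25 to -0.61) and -0.10 for *Car2*.

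The metallothionein UMIs of late Cko cells lay in a minority of the cells, though a larger one than in the WT. No *Mt1* or *Mt2* UMI was found in 66.4% of late Cko cells and 91.8% of late WT cells. The highest cell held 52 in the Cko and 6 in the WT. At least 1 *Mt1* or *Mt2* UMI was present in 33.6% of late Cko cells (28.5 to 39.1%) and 8.19% of late WT cells (6.95 to 9.57%). At least 3 were present in 17.6% and 0.512%, and at least 10 in 5.25% (17 cells) and in 0 of 1758 WT cells (exact upper limit 0.210%). After thinning to 3000 UMIs *Mt2* was found in 12% of late Cko cells and 1.82% of late WT cells, while in neutrophil-like cells, where the gene is near 0, it was found in 0.493% and 0.722%. The pair varied together in the late Cko cells, with a Spearman correlation of 0.44 over 324 cells, and 0.11 over 1758 WT cells.

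The difference was present at matched hemoglobin and within clusters. Between 40 and 60% hemoglobin *Mt1* was 13.8 CPM in WT and 158 in Cko cells, between 60 and 80% it was 10.1 and 157, and above 80% it was 6.61 and 83.3. Between 10 and 20% the order was the other way, with 140 and 41.2 CPM, from 14 Cko cells. From 20 to 40% *Mt1* was again higher in the Cko, with 33.4 and 72.1 CPM, from 60 Cko cells. In 3 of the 4 clusters with late cells both genes were higher in the Cko, with intervals that do not meet: *Mt1* was at 9.55 and 218 CPM in the cluster led by *Gch1*, at 13.2 and 171 in the one led by *Gm867* and *Hemgn*, and at 7.84 and 88.9 in the one led by *Tmcc2* and *Xpo7*. In the fourth, led by *Bpgm*, 19 of the 20 *Mt1* UMIs of the Cko came from 1 cell and *Mt2* was at 10.2 and 5.63 CPM. Median hemoglobin of late cells was 69.2% in WT and 70.1% in Cko cells, and the median cell held 5583 and 7649 UMIs.

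**Figure D5:**
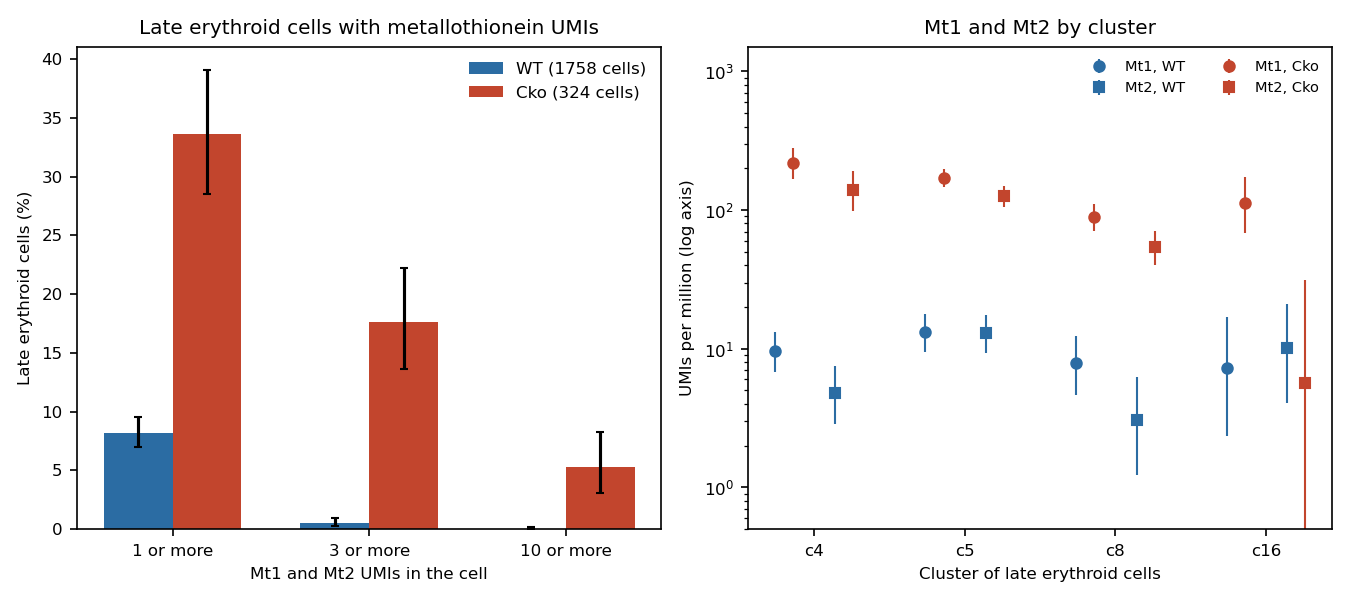
Left, percent of late erythroid cells that held at least 1, 3 or 10 *Mt1* and *Mt2* UMIs together, in 1758 WT (blue) and 324 Cko (red) cells, with exact binomial 95% intervals. Right, *Mt1* (circles) and *Mt2* (squares) in CPM on a log axis in the 4 clusters that hold late cells; Cko points lie above WT points except for *Mt2* in c16, the cluster led by *Bpgm*.

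*Mtf1*, which encodes the metal-sensing factor of the metallothionein genes, was also higher in late Cko cells. It was at 5.85 CPM (60 UMIs) in WT and 22.0 CPM (56 UMIs) in Cko cells, a log2 ratio of 1.91 (1.36 to 2.46), the 27th highest of the 3014 genes. In the early stage it was not: 33.8 CPM in WT and 24.2 in Cko cells. Of a list of 20 zinc handling genes 2 could be tested in late cells, and the other, *Slc30a9*, a zinc transporter gene, had a log2 ratio of -0.35. Of 14 genes of oxidative and metal stress 9 could be tested, and 2 passed 2-fold, where 4.18% of all genes tested were higher and 2.75% lower by that much, *Sqstm1*, an autophagy receptor gene, at a log2 ratio of 1.25 and *Gclc*, of glutathione synthesis, at -1.15. The median of these 9 was -0.17, against -0.04 over all genes tested.

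Genes of related functions were set beside the 4 in the early stage by 5 lists, in which few genes could be tested. They are read against the 1.65% of all genes tested that were higher and the 1.61% that were lower by 2-fold or more. Of 20 zinc handling genes 3 could be tested and none passed 2-fold, and their median log2 ratio was -0.48 against -0.08 over all genes tested. Of 16 genes of bicarbonate, proton and gas exchange 5 could be tested and 1 passed: *Slc4a1*, the bicarbonate and chloride exchanger of red cells, was at 24.3 CPM in WT and 7.75 in Cko cells. Of 14 oxidative and metal stress genes 8 could be tested and none passed, with *Txn1* highest at -0.06 and *Gclc* lowest at -0.57. Of 15 early progenitor and erythroid factors 13 could be tested and none passed, from *Kit* at 0.81 and *Tfrc*, the transferrin receptor, at 0.62 down to *Gfi1b* at -0.35 and *Klf1* at -0.38. Of 9 glucocorticoid targets 4 could be tested and 1 passed: *Tsc22d3*, a gene known for its induction by glucocorticoids, was at 5.63 and 17.0 CPM, a log2 ratio of 1.59.

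Outside the erythroid and the stem and progenitor-like classes *Car2* was lower in the Cko in each class large enough to compare, and the hemoglobin UMIs of the same cells were lower with it. In neutrophil-like cells *Car2* was at 87.5 CPM in WT and 15.9 in Cko cells. A *Car2* UMI was found in 25.8% (38.1% unthinned) and 4.52% (9.69% unthinned) of these cells, at a median of 5882 and 5952 UMIs per cell. In monocyte-like cells the level was 144 and 24.7 CPM, and in granulocyte-monocyte progenitor-like cells 146 and 50.4 CPM. Among cells of these 3 classes with under 1% hemoglobin, *Car2* was 4.74, 5.51 and 3.45 times higher in the WT, and the hemoglobin UMIs of the same cells were 3.37, 3.64 and 3.95 times higher. *Car2* passed 2-fold in all 3 classes. In neutrophil-like cells 1.03% of genes were lower and 1.4% higher in the Cko by that much, in monocyte-like cells 1.31% and 1.02%, and in granulocyte-monocyte progenitor-like cells 0.888% and 0.733%. The same held for *Car1* in granulocyte-monocyte progenitor-like cells, at 14.6 and 4.32 CPM. Such cells of the WT held 74.0 CPM of *Car2* in the granulocyte-monocyte progenitor-like, 73.3 in the neutrophil-like and 72.1 in the monocyte-like class, and those of the Cko held 21.5, 15.5 and 13.1 CPM. The part of free RNA in these levels was not tested.

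In B cell-like cells *Car2* differed less between the libraries than hemoglobin did. Among those with under 1% hemoglobin, *Car2* was at 160 CPM in 781 WT cells and 117 in 578 Cko cells, 1.37 times higher in the WT, where hemoglobin UMIs were 3.67 times higher. The cluster led by *Igll1* and *Vpreb1*, the surrogate light chain genes of early B cells, held 237 and 153 CPM of *Car2*, with a UMI in 74.2% and 64.0% of its cells. The ratio of *Car1* to *Car2* UMIs in all B cell-like cells was 0.0428 in WT and 0.0149 in Cko cells, and in neutrophil-like cells it was 0.134 and 0.197. In each library the intervals of these classes do not meet, while the WT and Cko intervals of neutrophil-like cells overlap. B cell-like cells under 1% hemoglobin held 56 *Car1* and 847 *Car2* UMIs in the WT and 10 and 595 in the Cko. Over the whole class *Car2* was at 544 and 167 CPM and *Car1* at 23.2 and 2.49 CPM, both past 2-fold, where 2.04% of genes were lower and 0.85% higher in the Cko by that much. Of the 3367 *Car2* and 144 *Car1* UMIs of the WT class, 2236 and 77 lay in the cluster led by *Igkc* and *Iglc2*. Its 109 WT cells had a median hemoglobin share of 41.1%, against 0.147% in its 46 Cko cells.

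Macrophage-like cells, 51 in WT and 9 in Cko cells, held *Mt1* at 417 and 302 CPM and *Car2* at 1557 and 1013 CPM. In the WT their median hemoglobin share was 13.6%. Among the 14 WT macrophage-like cells with under 1% hemoglobin, *Mt1* was at 624 CPM (54 UMIs) and *Car2* at 451 CPM (39 UMIs). *Mt2* and *Car1* were at 197 and 173 CPM in the same 14 cells, with UMIs in 3 and 6 of them. The 7 Cko macrophage-like cells under 1% hemoglobin held *Mt1* at 374 CPM (12 UMIs) and 0 UMIs of *Mt2*, *Car1* and *Car2*. The Cko *Car2* level thus came from the cells with more hemoglobin. No comparison of genotypes was made with 9 cells.

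The genes whose levels ran most like each member were found over 20 points, 10 classes in 2 libraries, among 5656 genes, by Pearson correlation of log2(CPM + 1). These points share libraries, so the values are a description. *Car2* was closest to *Nxpe2* (0.985), *Rhag*, *Slc43a1*, *Alad* and *Ptdss2*, of which *Alad* encodes an enzyme of heme synthesis and *Rhag* a red cell membrane channel protein. *Car1* was closest to *Epdr1* (0.974), *Gstm5*, *Atp1b2*, *Lefty1* and *Bex4*. *Mt2* was closest to *Atp1b2* (0.945), *Epdr1*, *Col5a1*, *Sphk1* and *Car1* (0.908). *Mt1* was closest to *Gdf3* (0.835), *Xpot*, *Rab38*, *Klf9* and *Mt2* (0.771), and its correlation with *Car2* was 0.286.

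Few other genes of either family were listed. *Mt3* was listed in the WT alone, with 9 UMIs, and *Mt4* in neither matrix. Of the other carbonic anhydrases *Car3* (214 UMIs) and *Car8* (5 UMIs) were listed in the WT alone, and both were highest in stromal-like cells, at 253 and 19.1 CPM. The metallothioneins listed in both matrices were thus *Mt1* and *Mt2*, and the carbonic anhydrases *Car1* and *Car2*. How many *Mt3*, *Car3* and *Car8* UMIs lay in erythroid cells was not measured.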

How the data were processed

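Levels of 4 genes were described in 2 single-cell libraries of BMCs. The authors deposited UMI counts per gene and cell, 1 table per mouse, made with Cell Ranger on GRCm38 per the labels; versions are not given in the sources used here. The tables list fewer genes than the annotation, and each gene had a cell with 4 or more UMIs. A row and a column of totals were dropped and barcodes with fewer than 200 genes left out. The other cells of both libraries were clustered jointly (Seurat 5.3.0 in R 4.3.3, resolution 0.8, 2000 variable genes, 20 principal components, mitochondrial and ribosomal shares regressed out) over the 6001 genes listed in both, without *Mt* and *Car* genes. A cluster was named from fixed markers when at least 3 counted (in 25% of its cells and 1.5-fold over other cells), and 161 WT and 301 Cko cells stayed unnamed. Scrublet doublets were kept, at an expected 5%. Intervals are exact Poisson, binomial or conditional 95% intervals (scipy 1.17.1) and cover counting error only. Shares of cells were thinned to 3000 UMIs, which left out 4 WT cells. Genes listed in both libraries with at least 100 UMIs in a class were tested against 2-fold. Named genes were the 4, the 5 most alike for each, and the listed family members and extremes of each list; genes named beyond that rule were chosen after their values were seen. The members, lists and classes were chosen with earlier results of these data known. The interval and the call at 2-fold were tested on counts simulated from a Poisson, the model that the intervals assume. That simulation leaves out the clumping of UMIs in single cells and so does not check the intervals against it. Alternatives were other clusterings, doublets removed, other minimum genes, hemoglobin borders, denominators and cell weights.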

Additional observations from a re-analysis of the deposited data

Results flagged for a closer look

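The direction of the genotype difference turned between classes for each gene, with counting intervals on opposite sides of 0; the difference between classes was not tested, since each genotype has 1 library. For *Mt1* the log2 ratio of Cko to WT was 3.80 in late erythroid cells and -0.45 in the intermediate stage. That stage was not uniform. *Mt1* was at 140 CPM in WT and 41.2 in Cko cells between 10 and 20% hemoglobin, and at 33.4 and 72.1 between 20 and 40%. For *Mt2* the log2 ratio was 5.22 in stem and progenitor-like cells and -1.5 in granulocyte-monocyte progenitor-like cells, the second from 40 and 15 UMIs. For *Car1* it was 1.68 and -1.75 and for *Car2* 0.80 and -1.53 in the same 2 classes. The stem and progenitor-like class was a mixture, and its cells without a *Klf1* UMI had these genes lower in the Cko. In them the log2 ratio was -2.14 for *Mt2* and -2.18 for *Car1*, and *Car2* was at 240 CPM in WT and 166 in Cko cells. The *Car1* levels of granulocyte-monocyte progenitor-like cells, 14.6 CPM in WT and 4.32 in Cko cells, lie near the 11.7 and 3.13 of neutrophil-like cells. Their *Car2* levels, 146 and 50.4 CPM, lie above the 87.5 and 15.9 of neutrophil-like cells.

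Barcodes with fewer than 200 genes were in no comparison. *Car2* had 43 UMIs in the 16 WT barcodes left out and 7 UMIs in the 8 Cko ones, both above the 3 counts that a count of 0 allows. Hemoglobin made up 86.4% and 83.6% of their UMIs, and no *Mt1* UMI was found in them.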

How the results depend on the processing

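No paired analysis was possible because each genotype has 1 library. In the early erythroid stage the log2 ratio of Cko to WT turned negative for *Mt1* (-1.32) and *Mt2* (-0.41) when each library was clustered alone, where it was 0.38 for *Car1* and 0.12 for *Car2*; the Cko class then held 10 cells. With classes given per cell from marker scores the 4 ratios were 0.21, 0.57, 0.76 and 0.27. Settings added after seeing the data gave 0.65 for *Mt1*, 0.97 for *Mt2*, 0.81 for *Car1* and 0.11 for *Car2* under 0.5% hemoglobin, 0.97, 0.77 and -0.24 for *Mt2*, *Car1* and *Car2* with the *Klf1* cells of the stem and progenitor-like class added, and 0.65, 0.87, 0.71 and -0.20 with those cells added after separate clustering. Borders at 5, 20 and 60% hemoglobin moved *Mt1* to 0.87 and *Mt2* to 1.18, and removing doublets moved *Mt2* to 1.02. *Car1* was 0.75 with *Mt* and *Car* genes in the clustering, 0.79 without doublets, 0.74 from 500 genes per cell, 0.76 without regression and 0.78 as a mean over cells. *Car2* stood on either side of 0, at -0.19, -0.19, -0.18 and -0.16 under the first 4 of these, 0.0063 at resolution 0.4 and 0.10 with borders at 1, 5 and 30%. In the late stage, over 14 settings, *Mt1* stayed between 3.45 and 3.87 and *Mt2* between 3.29 and 3.90, both lowest with borders at 1, 5 and 30%. The shift from *Car1* to *Car2* was 4.58 (WT) and 5.97 (Cko) with classes per cell, 4.31 and 5.58 with borders at 1, 5 and 30%, 6.55 and 8.26 at 5, 20 and 60%, 5.24 and 7.07 without the 1% highest cells, 4.73 and 5.01 in the WT from 500 genes and as a mean over cells, and 6.02 in the Cko clustered alone. In stem and progenitor-like cells without *Klf1* the ratios were -0.22 (*Mt1*), -2.14 (*Mt2*) and -2.18 (*Car1*), and in granulocyte-monocyte progenitor-like cells *Mt1* was -0.16 with separate clustering and -3.5e-06 without doublets. The causes of these moves were not tested, apart from the *Klf1* and hemoglobin settings, which change the cells themselves. No class of stem and progenitor-like cells formed at resolution 1.5, without doublets, from 500 genes or without regression. Among the 4 erythroid stages, *Mt1*, *Mt2* and *Car1* were highest in the early one under all 11 clusterings in both libraries, but in the Cko clustered alone the stem and progenitor-like class stood higher still, at 1285 against 396 CPM for *Mt1*, 978 against 496 for *Mt2* and 1398 against 1381 for *Car1*. *Car2* was highest in the intermediate stage under 9 of them for the WT library and 10 for the Cko library, otherwise in the late stage. Counting error limits values from few UMIs, as in *Mt2* outside the erythroid cells.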

Other observations

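Other genes stood high in the late erythroid cells of the Cko beside *Mt1* and *Mt2*; they were picked after their values were seen. *Ddit3* and *Cebpb*, which encode stress-responsive transcription factors, were at 29.1 and 8.10 CPM in the WT and 288 and 91.3 CPM in the Cko, log2 ratios of 3.31 and 3.50. *Cdkn1a*, a cell cycle inhibitor gene, was at 2.73 and 82.7 CPM, from 28 and 210 UMIs. *Tfrc*, the transferrin receptor gene, was at 134 and 392 CPM, a log2 ratio of 1.55. *Klf1* was level, at 437 and 436 CPM.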
